A study of Mus musculus with 6 samples.

Results

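This report covers 32 axon guidance genes in the fetal mouse cortex, namely 14 Eph receptors, 8 ephrins and 10 genes of the Slit, Robo and Srgap families. They were taken by gene symbol from a count table of 45583 genes, and all 32 were in it. The table holds 6 RNA-seq libraries, 3 from fetuses whose dams received bisphenol A (BPA) and 3 from fetuses whose dams received vehicle. BPA is a plastics chemical that can bind estrogen receptors, and the comparison asks how the guidance genes stood in the cortex after prenatal exposure. BPA was given subcutaneously at 50 µg/kg every day from GD10.5 to GD14.5 (gestational day), and vehicle dams were injected without BPA on the same days. The labels name the vehicle as peanut oil, and the study's text adds ethanol to the oil in both groups. Collection was at GD15.5 by the labels and the study's methods, while the study's results section gives a later age. Both groups were male fetuses (SRY positive), with 1 fetus per library and WT given as genotype. Both came from the Cyp19-EGFP strain, which was made with a bacterial artificial chromosome that carries Cyp19a1, the aromatase gene, with EGFP placed before its start codon. Which fetuses shared a dam is not given in the sources used here, so the p-values measure the spread between fetuses that may share a litter.

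Eph receptors are receptor tyrosine kinases, and ephrins are their membrane-bound ligands. EphA receptors mostly bind the lipid-anchored ephrin-A proteins and EphB receptors mostly bind the transmembrane ephrin-B proteins, while Epha4 binds both, and signals can run into the receptor cell and back into the ligand cell. Contact between the partners often repels a growth cone or a migrating neuron. Slits are secreted repellents read by Robo receptors, and Srgap proteins bind the inside of Robo and shape membranes. In the fetal cortex these systems are known for steering thalamocortical, corticofugal and callosal axons and for the migration of interneurons born in the ventral telencephalon.

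The libraries held 3444601 to 7180835 counts on genes, and BPA replicate 3 was the shallowest. The 32 genes together took 0.428% to 0.474% of the counts of a library. The cortical label was met by the markers of dorsal pallium, of which all 10 were measured, with a summed level of 3278 to 3803 CPM in vehicle and 3504 to 3707 CPM in BPA libraries (CPM, counts per 1000000 after TMM scaling of library sizes). Markers of ventral telencephalon were also present, with none of 12 at 0, and their summed level was 1215, 1186 and 1057 CPM in vehicle replicates 1 to 3 against 996, 1008 and 921 CPM in BPA replicates 1 to 3. All 12 had lower fitted values in BPA and 6 of them passed unadjusted p of 0.05, while none passed adjustment. Of all genes tested, 49.5% had lower fitted values in BPA and 1.18% passed that p with lower values. The list was chosen with earlier results of these data known, so its counts are a description only. Choroid plexus genes stood at 222 CPM in vehicle replicate 2 and 351 CPM in BPA replicate 2, against 11.4 to 18.8 CPM in the other 4 libraries, and values without this pair are given beside the results of genes shown by library that turned or moved by more than 1.5 times. In whole tissue, fewer cells of a type and less RNA per cell cannot be told apart.

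None of the 30 guidance genes that could be tested differed between BPA and vehicle at an adjusted p under 0.1 (edgeR quasi-likelihood test, Benjamini-Hochberg adjustment over 13741 genes), and each had an adjusted p of 0.9998. No other gene tested passed that threshold either, a background of 0% called, and the smallest adjusted p over all genes was 0.25 in that test. At unadjusted p under 0.05, 1 guidance gene was called (3.33%), the receptor Epha10, against 302 genes or 2.20% of all genes tested and 1.18% called lower. Epha10 passed the filter on low counts only through its vehicle libraries, the group where it was high. In 3 guidance genes (10.0%) all BPA libraries lay below all vehicle libraries, namely Epha10, Epha8 and Robo1, and in none did they lie above. Among all genes tested, 6.75% had groups that did not overlap, 3.56% with BPA lower and 3.19% with BPA higher. Fitted values were lower in BPA for 21 of the 30 genes (70.0%), against 49.5% of all genes tested. This lean depended on single libraries, as it was 15 of 30 without vehicle replicate 2 or without BPA replicate 2, and 12 of 30 without the 2 libraries high in choroid plexus genes. The median log2 fold change was small, -0.025 over the 30 genes against 0.0016 over all genes.

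The fit also gave an interval for the fold change of each gene. These were set gene by gene and take no account of shared litters, so they may be too narrow. The 95% interval of the fold change lay within 1.25-fold in either direction for 15 of the 30 genes, within 1.5-fold for 23 and within 2-fold for 29. The exception at 2-fold was Epha10. These intervals are wide for genes with few counts and narrow for the abundant ones, as the plot of fold changes by family shows.

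**Figure D1:**
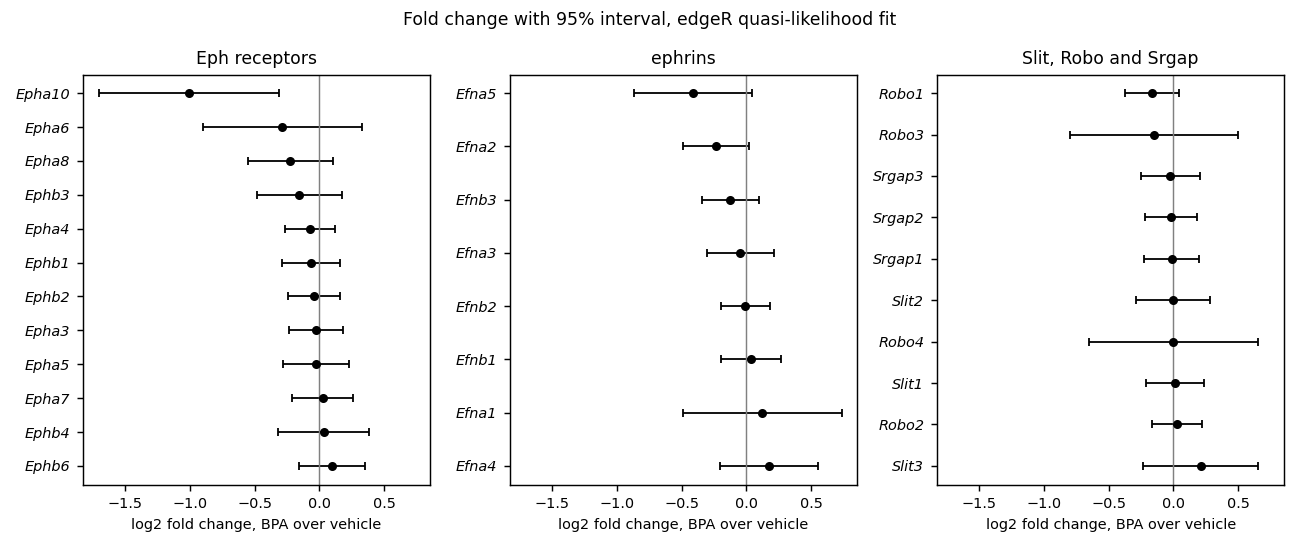
Log2 fold change of BPA over vehicle for each tested gene (points) with the 95% interval from the edgeR quasi-likelihood fit (bars), in 3 panels by family. The interval of Epha10 alone excludes 0, from -1.70 to -0.31, and those of the abundant receptors, ephrin-B genes and Srgap genes are narrow and span 0.

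Among the Eph receptors, the levels spanned a wide range. To compare genes, CPM was divided by the exonic length in kilobases (CPM/kb), and levels are means over all 6 libraries. Epha4, the receptor that binds both ephrin classes, was highest at 43.8 CPM/kb, with libraries from 40.4 to 47.5, and it made up 25.9% of the summed receptor level. It was followed by Epha3 at 23.8, Epha5 at 21.4, Ephb2 at 20.6, Ephb6 at 18.9 and Ephb1 at 17.7 CPM/kb. The step from Epha4 to Epha3 was larger than the spread, as each library of Epha4 exceeded each of Epha3, whereas each neighbouring pair from Epha3 down to Ephb1 overlapped. Ephb6, whose kinase domain is inactive, thus overlapped in level with Ephb1 and Ephb2, which are active kinases, when exonic length was used. Divided by the longest coding transcript, Ephb6 was lower at 18.9 CPM/kb, against 26.5 for Ephb1 and 23.8 for Ephb2, so this overlap depended on length.

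Lower in the order stood Epha7 at 9.25, Ephb4 at 5.28, Epha8 at 3.65 and Ephb3 at 3.54 CPM/kb, and only the last pair overlapped between neighbours. Epha6 at 0.648, Epha10 at 0.350 and Epha2 at 0.313 CPM/kb were near the bottom. Epha1 had 2, 0 and 3 counts in the vehicle libraries and 1, 0 and 1 in the BPA libraries, all at or under the floor of 3 counts, and its exons overlap those of Zyx on the other strand, so its level was not detectable at this depth. Epha2 had 5 to 13 counts per library and did not pass the filter on low counts, so neither of these receptors was tested. Divided by the longest coding transcript in place of all exons, Epha4 stayed first at 55.7 CPM/kb and Epha5 moved up to follow it, at 48.8 CPM/kb. The clear step below Epha4 thus held only with exonic length.

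**Figure D2:**
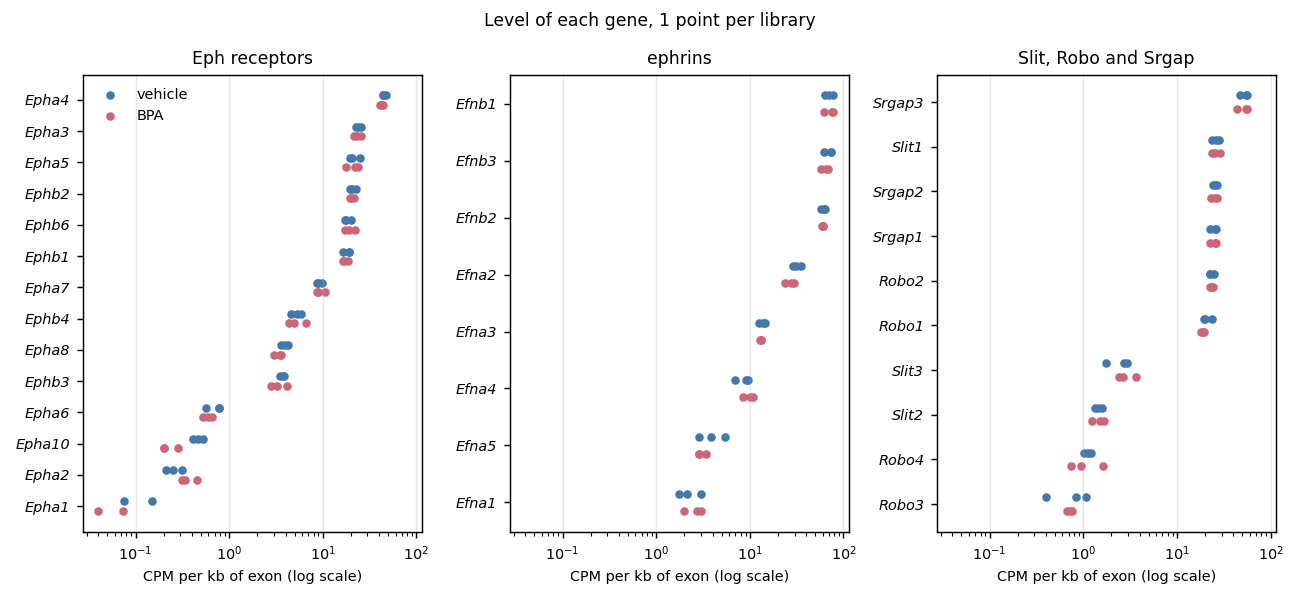
Level of each of the 32 genes in every library, as CPM per kilobase of exon on a log axis, in 3 panels by family with vehicle points above BPA points. The genes are in order of mean level, from 43.8 for Epha4, 71.1 for Efnb1 and 52.1 for Srgap3 at the top, and libraries with 0 counts of Epha1 (vehicle replicate 2 and BPA replicate 2) have no point.

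Of the 12 receptors tested, 9 had lower and 3 had higher fitted values in BPA, and the median log2 fold change was -0.051. Epha10, a receptor that lacks an active kinase, lies on chromosome 4 from 124880899 to 124917800 (GRCm38, plus strand). It was at 3.38, 3.80 and 2.96 CPM in vehicle replicates 1 to 3 and at 2.04, 1.46 and 1.46 CPM in BPA replicates 1 to 3. All 3 BPA libraries lay below all 3 vehicle libraries, and the means were 3.38 ± 0.421 and 1.65 ± 0.335 CPM (SD, n = 3 each). This is a log2 fold change of -1.01 with its standard error (SE) at 0.328, a fold of 0.498 with a 95% interval of 0.307 to 0.807. The unadjusted p was 0.0075, which ranked 35th of the genes tested, and the adjusted p was 0.9998 in the edgeR fit. The level behind this is low, 15 to 27 counts in vehicle and 5 to 13 in BPA libraries. The gene passed the filter on low counts only through the vehicle libraries, so its call and its lack of overlap are not independent of that filter. Without the 2 libraries high in choroid plexus genes, which leaves 2 per group, the log2 fold change was -0.79 and the unadjusted p 0.079, so the call did not hold there.

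Epha8, an EphA receptor on chromosome 4 from 136929419 to 136956816 (minus strand), lies 93.4 kb from Ephb2. It was at 17.1, 19.9 and 18.5 CPM in vehicle and 14.3, 16.7 and 16.6 CPM in BPA replicates 1 to 3. The groups did not overlap, although the gap between the lowest vehicle and the highest BPA library was only from 17.1 to 16.7 CPM, and with library size alone as scaling they overlapped. The log2 fold change came to -0.23 (SE 0.154, unadjusted p = 0.16, adjusted p = 0.9998, edgeR). The summed ventral telencephalon markers were lower in every BPA library as well, as were Epha8 and Epha10. Both receptors were picked out for groups that did not overlap, so this match follows from that choice. The part of ventral tissue in their values was not tested.

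Ephb3, a receptor for ephrin-B proteins, was at 25.6, 24.8 and 23.3 CPM in vehicle and at 21.7, 18.4 and 27.4 CPM in BPA replicates 1 to 3. The groups overlapped because BPA replicate 3 was the highest of all 6 libraries, and the log2 fold change came to -0.16 (SE 0.155). It was -0.027 without BPA replicate 2, -0.30 without BPA replicate 3 and -0.018 without the choroid plexus pair.

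The abundant receptors did not separate the groups. Epha4 was at 382, 351 and 350 CPM in vehicle and at 358, 326 and 347 CPM in BPA libraries, with a log2 fold change of -0.074 and a 95% interval of 0.831- to 1.09-fold. Vehicle replicate 1 was the highest and BPA replicate 2 the lowest, with the rest interleaved. Its log2 fold change was -0.031 without vehicle replicate 1 and -0.038 without BPA replicate 2. Epha3 was at 208, 197 and 222 CPM in vehicle and at 222, 189 and 203 CPM in BPA libraries, an interval of 0.850- to 1.13-fold. Epha5, which guides axons together with ephrin-A ligands, was at 413, 329 and 340 CPM in vehicle and at 395, 295 and 373 CPM in BPA libraries, an interval of 0.824- to 1.17-fold. In both genes BPA replicate 2 was the lowest library, and the other libraries of the groups overlapped. Without the choroid plexus pair Epha3 was at a log2 fold change of -0.0046 and Epha5 at 0.034, against -0.028 and -0.026 with all libraries.

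Of the other receptors tested, Epha6, Ephb1 and Ephb2 had log2 fold changes from -0.28 to -0.040, and Epha7, Ephb4 and Ephb6 from 0.025 to 0.097. Their groups all overlapped. Epha6 had the widest interval of these, from 0.537- to 1.26-fold, at 12 to 29 counts per library. Ephb4, a receptor known from venous endothelium, was at 24.4 ± 2.88 CPM in vehicle and 24.6 ± 5.64 CPM in BPA libraries (SD, n = 3 each), and the summed level of 10 endothelial markers was 173 to 185 CPM in vehicle and 170 to 185 CPM in BPA libraries.

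Among the ephrins, the 3 ephrin-B genes were the highest, with Efnb1 at 71.1, Efnb3 at 66.4 and Efnb2 at 60.5 CPM/kb. Neighbours in this order overlapped between libraries, so they were not apart in level, and with the longest coding transcript as length Efnb2 came first at 86.5 CPM/kb. The ephrin-A genes were lower and apart from each other down to Efna5, with Efna2 at 29.3, Efna3 at 13.4, Efna4 at 9.16, Efna5 at 3.55 and Efna1 at 2.45 CPM/kb. Efna1, Efna3 and Efna4 lie side by side on chromosome 3, with gaps of 32.8 and 10.4 kb between them, and their levels still differed.

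Of the 8 ephrins 5 had lower and 3 had higher fitted values in BPA (median log2 fold change -0.028), and none passed unadjusted p of 0.05. Efna2 was at 62.2, 75.0 and 66.1 CPM in vehicle and at 58.3, 63.4 and 50.2 CPM in BPA replicates 1 to 3. The groups overlapped only in that BPA replicate 2 was above vehicle replicate 1. The log2 fold change came to -0.23 (SE 0.121, unadjusted p = 0.071, adjusted p = 0.9998, edgeR).

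Efna5, a ligand known for setting up retinal and cortical maps, was at 21.9, 11.7 and 15.6 CPM in vehicle and at 11.5, 13.7 and 11.7 CPM in BPA replicates 1 to 3. Vehicle replicate 1 stood highest and vehicle replicate 2 lay among the BPA libraries. The log2 fold change came to -0.41 (SE 0.215, unadjusted p = 0.074, edgeR), and it rested largely on vehicle replicate 1, without which it was -0.13 with an unadjusted p of 0.53. Without the 2 libraries high in choroid plexus genes it was -0.71, where the unadjusted p was 0.0032 and the adjusted p 0.45.

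Efnb3, a midline ligand in the spinal cord and forebrain, was at 233, 196 and 232 CPM in vehicle and at 183, 208 and 217 CPM in BPA replicates 1 to 3, with a log2 fold change of -0.12 (SE 0.104). The lowest library was in BPA and the next lowest in vehicle, and the change was -0.22 without the choroid plexus pair and -0.053 without BPA replicate 1. Efnb1, whose mutation in people causes craniofrontonasal syndrome, was at 241, 266 and 222 CPM in vehicle and at 268, 263 and 213 CPM in BPA libraries, an interval of 0.872- to 1.2-fold. Efnb2, a ligand also known from arterial endothelium, was at 432, 425 and 390 CPM in vehicle and at 416, 415 and 409 CPM in BPA libraries, an interval of 0.872- to 1.13-fold. For Efnb1 the highest and the lowest library were both in BPA, and for Efnb2 all BPA libraries lay inside the vehicle range. Without the choroid plexus pair their log2 fold changes were 0.066 and 0.011, against 0.033 and -0.0090 with all libraries.

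The remaining ephrins were Efna3 with a log2 fold change of -0.046, Efna1 with 0.12 and Efna4 with 0.17, and all 3 overlapped between groups. Efna1 was read from 19 to 39 counts per library and had an interval of 0.712- to 1.66-fold. Antisense genes overlap 14.1% of the exons of Efna3 and 10.51% of those of Efna4 and held 1 to 9 and 2 to 10 counts per library, against 108 to 250 and 59 to 109 for the ephrins.

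**Figure D3:**
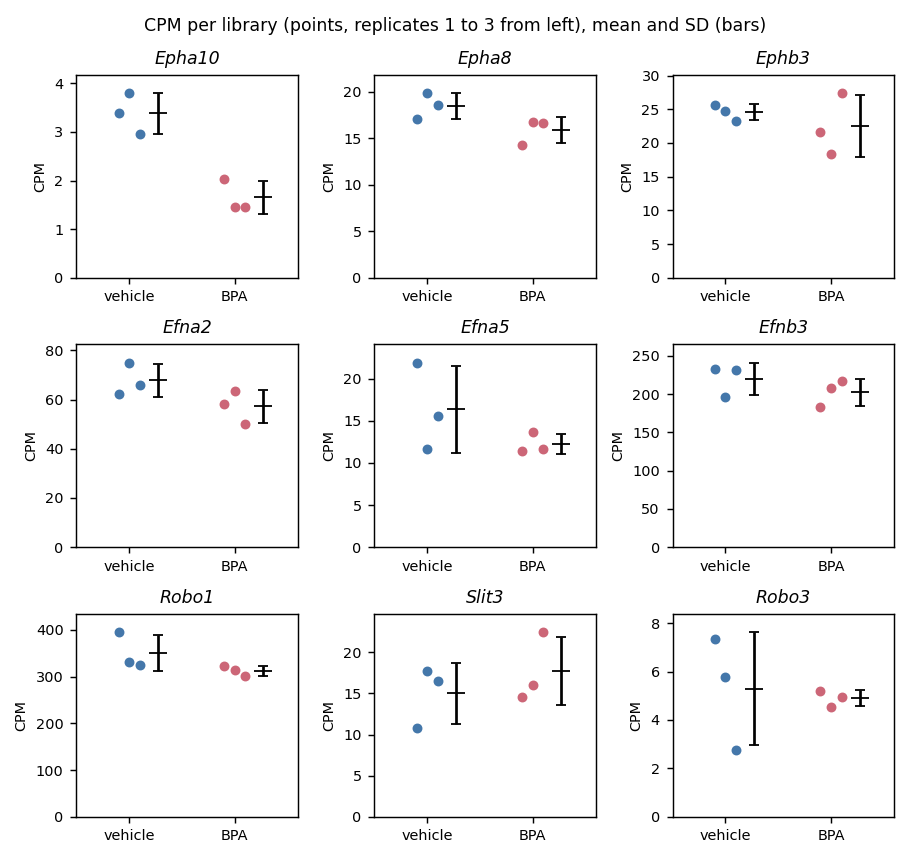
CPM in each library (points, replicates 1 to 3 from left) with the group mean and SD (n = 3) for the 3 genes of each family with the smallest unadjusted p. In Epha10, Epha8 and Robo1 the 3 BPA points lie below the 3 vehicle points, while in the other 6 genes the groups overlap.

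In the Slit, Robo and Srgap families, Srgap3 was highest at 52.1 CPM/kb, about double the next gene (2.01 times). Slit1 at 26.0, Srgap2 at 25.4, Srgap1 at 24.8, Robo2 at 23.4 and Robo1 at 20.1 CPM/kb followed, with each neighbouring pair overlapping. The order below Srgap3 and the size of its step depended on length. With the longest coding transcript Srgap3 was at 57.8 CPM/kb, followed by Robo2 at 46.3 and Robo1 at 43.9 CPM/kb. The doubling thus held only with exonic length. Slit3 at 2.70, Slit2 at 1.46, Robo4 at 1.11 and Robo3 at 0.744 CPM/kb formed the low end, and Slit2 passed Slit3 under the other length, at 3.74 against 3.13 CPM/kb. Slit1 was thus the most abundant of the Slit ligands under both lengths. Robo3 and Robo4 are neighbours on opposite strands of chromosome 9, 553 bases apart.

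Of these 10 genes 7 had lower and 3 had higher fitted values in BPA (median log2 fold change -0.0075), and none passed unadjusted p of 0.05. Robo1, a Slit receptor of cortical neurons and interneurons, lies on chromosome 16 from 72308306 to 73046095 on the plus strand. It was at 395.5, 331 and 325 CPM in vehicle and at 323, 314 and 302 CPM in BPA replicates 1 to 3. The groups did not overlap, but the lowest vehicle library and the highest BPA library were close, at 325 and 323 CPM, and vehicle replicate 1 stood above the rest. With no filter on low counts, which shifts the scaling factors, they overlapped. The log2 fold change came to -0.16 (SE 0.0987, unadjusted p = 0.12, adjusted p = 0.9998, edgeR), and it was -0.067 without vehicle replicate 1. Robo1 was lower in BPA together with the summed ventral telencephalon markers, a match that follows from picking genes whose groups did not overlap. The part of ventral tissue in its values was not tested. Robo2, the other main cortical Robo receptor, was at 394 ± 22.3 CPM in vehicle and 402 ± 14.4 CPM in BPA libraries (SD, n = 3 each).

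Slit3 was at 10.7, 17.7 and 16.6 CPM in vehicle and at 14.6, 16.1 and 22.5 CPM in BPA replicates 1 to 3, with a log2 fold change of 0.21 (SE 0.209). The lowest library was vehicle replicate 1 and the highest was BPA replicate 3, and the change was 0.0064 without the former, 0.035 without the latter, 0.36 without vehicle replicate 2 and 0.42 without the choroid plexus pair. Robo3, a receptor that lets commissural axons cross the midline, was at 7.35, 5.77 and 2.76 CPM in vehicle and at 5.18, 4.55 and 4.96 CPM in BPA libraries. The BPA libraries lay inside the vehicle range, and the 95% interval of 0.576- to 1.41-fold was wide at 14 to 50 counts. Its log2 fold change was -0.15, 0.15 without vehicle replicate 1, -0.42 without vehicle replicate 3 and -0.045 without the choroid plexus pair.

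Slit1 was at 167, 153 and 139 CPM in vehicle and at 171, 141 and 152 CPM in BPA libraries, an interval of 0.862- to 1.18-fold. Srgap3 was at 536, 551 and 466 CPM in vehicle and at 548.5, 436 and 545 CPM in BPA libraries, an interval of 0.839- to 1.15-fold. Srgap2, known for its part in spine maturation and neuronal migration, was at 325, 304 and 334 CPM in vehicle and at 323, 289 and 337 CPM in BPA libraries, an interval of 0.858- to 1.13-fold. Srgap3 and Srgap2 were lowest in BPA replicate 2 and Slit1 in vehicle replicate 3, and the groups overlapped for all 3 genes. Without the choroid plexus pair the log2 fold changes were 0.085 for Slit1, 0.13 for Srgap3 and 0.011 for Srgap2, against 0.012, -0.024 and -0.020 with all libraries.

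Slit2, Robo4 and Srgap1 had log2 fold changes from -0.013 to -0.00049. Robo4, a receptor of vascular endothelium, had the widest interval of the family, from 0.637- to 1.57-fold, and ranged from 3.90 to 8.64 CPM in the BPA libraries.

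Summed over a class, the receptors, ligands and effectors were close between groups. The 9 EphA genes summed to 1127, 993 and 1025 CPM in vehicle and to 1085, 918 and 1050 CPM in BPA replicates 1 to 3. The 5 EphB genes summed to 492, 524 and 506 CPM in vehicle and to 519, 481 and 493 CPM in BPA libraries. Both classes overlapped between groups.

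The ephrin-A genes were the only class of the 7 without overlap, at 129, 143 and 134 CPM in vehicle and at 122, 128 and 116 CPM in BPA libraries, a ratio of group means of 0.901. The gap was narrow, from 129 CPM in vehicle replicate 1 to 128 CPM in BPA replicate 2, and other scalings of this sum were not tried. No single ephrin-A gene separated the groups, and Efna2 made up the largest part of the sum. The other ratios of BPA over vehicle were 0.983 for ephrin-B, 1.02 for Slit, 0.960 for Robo and 0.987 for Srgap genes, all with overlapping libraries. These sums are given with no test and with no background share over all genes.

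**Figure D4:**
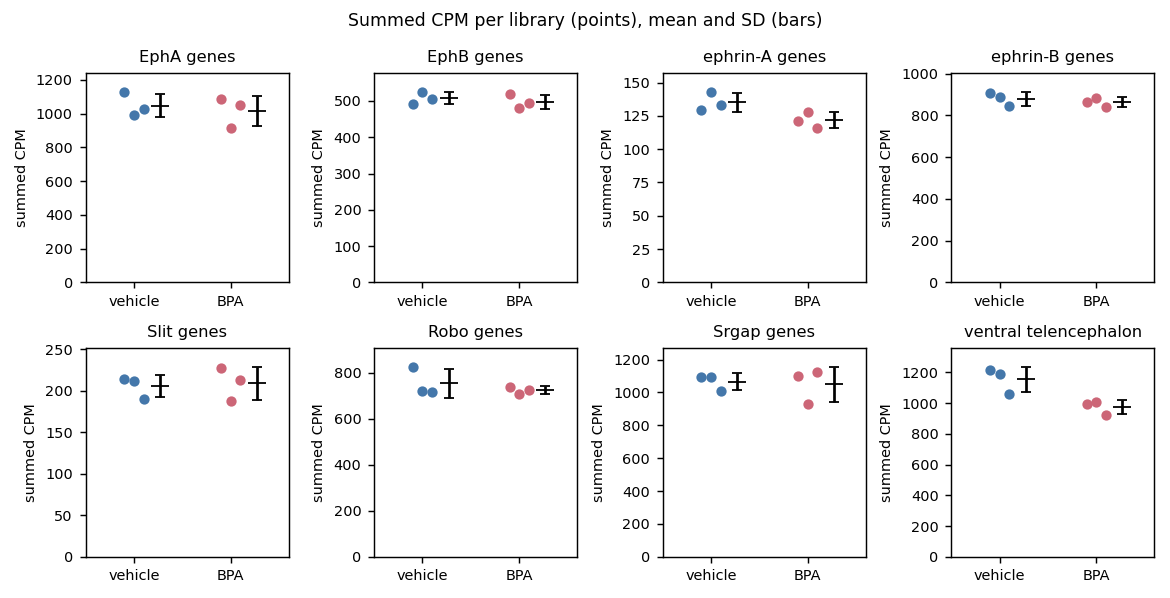
Summed CPM per library (points, replicates 1 to 3 from left) with the group mean and SD (n = 3) for the 7 gene classes and for 12 markers of ventral telencephalon. The ephrin-A sums (129 to 143 CPM in vehicle, 116 to 128 CPM in BPA) and the ventral marker sums (1057 to 1215 and 921 to 1008 CPM) do not overlap between groups, and the other 6 classes do. For ephrin-A the gap between groups is narrow.

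Upstream sequences are shown for Epha8 and Robo1, whose groups did not overlap, and for Epha2, which held a motif match, since BPA can bind estrogen receptors, which recognise a palindromic element or a single arm of it. The element searched was GGTCANNNTGACC and the single arm AGGTCA, on both strands, in the 250 bases before each gene's start in RefSeq (GRCm38.p6), with 35 windows for 30 matched guidance genes. Each run is read 5′ to 3′ on the gene's strand, and capitals mark the single arm, here as its reverse complement TGACCT. They lie at chr4:136956817-136957066 (minus strand) for Epha8, at chr16:72662899-72663148 (plus strand) for Robo1 and chr4:141300971-141301220 (plus strand) for Epha2. The window of Epha10, which held neither motif, lies wholly in exons of its GENCODE model, at 250 bases. That of Robo4, which held the arm, reaches 75 bases into its first exon, and neither is printed. The window of Slit3 and a window of Efna1 hold 232 and 191 exonic bases, and all of these are counted among the 35. Also counted are the Efnb1 window, a window of Efna3 and the further windows of Robo2. For these, the bases shortly after the RefSeq start were not found in GENCODE transcripts of the gene. Efnb3 and Slit1 had no window. The Robo1 window precedes its RefSeq start but lies inside the longer span of its GENCODE model, outside the model's exons.
Epha8: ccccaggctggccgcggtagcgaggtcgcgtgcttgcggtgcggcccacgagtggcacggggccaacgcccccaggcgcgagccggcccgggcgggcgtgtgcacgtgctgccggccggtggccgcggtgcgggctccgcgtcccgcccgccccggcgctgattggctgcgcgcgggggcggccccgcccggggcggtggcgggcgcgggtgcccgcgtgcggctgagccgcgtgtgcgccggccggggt
Robo1: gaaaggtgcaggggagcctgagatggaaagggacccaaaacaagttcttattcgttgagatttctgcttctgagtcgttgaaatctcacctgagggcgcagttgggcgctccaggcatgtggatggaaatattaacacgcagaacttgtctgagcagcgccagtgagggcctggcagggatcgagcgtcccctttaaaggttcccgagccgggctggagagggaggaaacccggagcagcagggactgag
Epha2: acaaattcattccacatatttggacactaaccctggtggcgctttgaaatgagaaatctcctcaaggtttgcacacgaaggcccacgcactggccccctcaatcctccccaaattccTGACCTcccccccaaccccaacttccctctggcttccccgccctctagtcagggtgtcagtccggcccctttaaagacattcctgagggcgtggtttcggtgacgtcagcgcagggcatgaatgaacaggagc
The full element was in 0 of the 35 windows and in 0.0639% of 32851 RefSeq windows of the same length. The single arm was in 2 guidance windows, 133 bases before the start of Epha2 and 109 bases before that of Robo4, and in 14% of all windows. A match or its absence describes these letters only. The windows of the guidance genes were rich in G and C, with a median of 64% against 52.4% over all windows, and that of Epha8 held 84.0%.

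The guidance genes signal through shared partners, which were looked at in 2 lists. Of 39 partners of Eph and ephrin signalling, including the exchange factors Ngef and Tiam1, the kinases Fyn and Src and the protease Adam10, none passed unadjusted p of 0.05. Of these 20 had higher and 19 had lower fitted values in BPA, and the median log2 fold change was 0.0018. The smallest p among them was that of Chn2, a Rac GTPase-activating protein, at 44.4, 42.9 and 44.8 CPM in vehicle and 33.3, 42.7 and 35.6 CPM in BPA libraries (log2 fold change -0.24, unadjusted p = 0.074). Shb, an adaptor protein, had a log2 fold change of -0.20 and Arhgef15, an exchange factor of the ephexin family, one of 0.33, and both overlapped between groups.

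Of 19 partners of Slit and Robo signalling, 16 had lower and 3 had higher fitted values in BPA (median log2 fold change -0.044), and none passed unadjusted p of 0.05. This is 84.2% lower, against 49.5% of all genes tested, and the lean was not checked with libraries left out. Myo9b, an unconventional myosin, had the smallest p, with a log2 fold change of 0.26 (SE 0.139). Vasp, an actin regulator, had a log2 fold change of -0.23. Dag1, dystroglycan, which binds Slit proteins, was lower in all 3 BPA libraries than in any vehicle library, with a log2 fold change of -0.11. Groups did not overlap for 2 of the 39 Eph and ephrin partners (5.13%), Chn2 lower and Yes1 higher in BPA, and for 1 of the 19 Slit and Robo partners (5.26%), Dag1, beside the background of 6.75%.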

How the data were processed

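The deposited values were the authors' raw read counts per gene for 6 libraries. Per the labels and the study's methods, a strand-specific kit was used on total RNA, 50-base reads were taken from one end, TopHat2 2.0.14 aligned them to GRCm38, and featureCounts assigned them to GENCODE models. The submitters' processing notes also name StringTie 1.2.4. Whether counting used strand or multi-mapped reads is not stated. Of the 32 genes, 9 overlap exons of another gene, and 3 share at least 2% of their 50-base words with other genes.

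Genes were kept by filterByExpr of edgeR 4.0.16 in R 4.3.3 (minimum count of 10, minimum total of 15), so that 13741 genes remained, which hold 99.7% of the counts. BPA was compared with vehicle by the edgeR quasi-likelihood test on TMM-scaled counts without covariates, two-sided, with Benjamini-Hochberg adjustment at 0.1, after the study's methods. Standard errors and 95% intervals came from the quasi-likelihood statistic. Levels were divided by union exonic lengths of GENCODE M21. Replicates were numbered in accession order and pair no samples. The floor of 3 counts covers counting error only. DESeq2 1.42.0, limma 3.58.1 and other scalings and filters were alternatives.

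The genes, lists and tests were chosen with earlier results of these data known. Genes given with a value per library were those at unadjusted p under 0.05, those whose groups did not overlap, and in each family the 3 with the smallest p and the 3 with the highest level. Of the partners, the 3 with the smallest p in each list were named, and Yes1 was named after its values were seen.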

Additional observations from a re-analysis of the deposited data

How the results depend on the processing

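No guidance gene passed an adjusted p of 0.1 under any alternative. Over all genes, 0 passed with the quasi-likelihood test, where 302 had an unadjusted p under 0.05, but 3 passed with DESeq2, 2 with the edgeR exact test, 19 with no filter on low counts, 0 to 1 with a library left out and 15 without the 2 libraries high in choroid plexus genes, an alternative chosen after seeing the data. Guidance genes at unadjusted p under 0.05 numbered 1 as reported, 2 with no filter (Epha10 and Efna5), 0 with a minimum of 10 CPM in 3 libraries, which removed Epha10, and 1 to 2 with a library left out, Efna2 joining without vehicle replicate 1 or BPA replicate 2 and Efna5 without vehicle replicate 2. Of all genes, 1.39% to 5.10% were under that p with a library left out. Without the choroid plexus pair the 1 gene was Efna5, beside 6.99% of all genes. Genes whose groups did not overlap rose from 3 to between 5 and 6 with a library left out, and to 10 without that pair, as fewer libraries must separate. The share over all genes rose as well, to between 12.2% and 19.7% and to 35.2%. The median log2 fold change of the Eph receptors was -0.11 to -0.024 with a library left out, that of the ephrins -0.065 to 0.0074 and that of the Slit, Robo and Srgap genes -0.076 to 0.065, so that both of the latter turned sign. Without the pair these medians were -0.011, 0.0090 and 0.094. The number of guidance genes with lower values in BPA, 21 as reported, ranged from 12 to 25, and the lowest count was without the choroid plexus pair.

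Leaving out 1 library turned the direction of 8 of the 17 genes given by library, which ranged on the log2 scale from -0.092 to 0.027 for Epha3, -0.11 to 0.089 for Epha5, -0.030 to 0.13 for Efnb1, -0.054 to 0.020 for Efnb2, -0.42 to 0.15 for Robo3, -0.070 to 0.077 for Slit1, -0.067 to 0.040 for Srgap2 and -0.094 to 0.076 for Srgap3. Without the choroid plexus pair, Epha5 was 0.034, Efnb2 0.011, Srgap2 0.011 and Srgap3 0.13. The cause was not tested. Epha10 kept its direction, from -1.21 to -0.79, with unadjusted p from 0.0067 to 0.079. No paired analysis was possible because the labels give no replicate numbers that are shared between groups. The depth limits Epha1, Epha2, Epha6, Epha10, Robo3, Robo4 and Efna1, which had at most 55 counts in any library.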
